A study of Mus musculus with 2 samples.

Results

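The mir-29 family of the mouse consists of 4 microRNA genes, Mir29a, Mir29b-1, Mir29b-2 and Mir29c. They were taken by name, through the Ensembl gene identifier of each row, and all 4 were among the 1973 microRNA genes counted. Small RNA shorter than 30 nt was sequenced from the midbrain of B6NCrl mouse embryos at embryonic day 10.5. The 1 group holds 2 biological replicates, each a library from pooled healthy embryos of both sexes, 69 embryos in replicate 1 and 51 in replicate 2. The series has no treatment, genotype, second tissue or second age, so the values below are levels in these pools and ratios between the 2 libraries, and no test between conditions was possible. The dissected tissue is a mixture, and fewer cells of a type cannot be told apart from less RNA per cell.

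A microRNA gene is transcribed into a hairpin, from which a short mature strand is cut and loaded into an Argonaute protein. The seed near its 5′ end pairs with target messenger RNAs and lowers their output. The mir-29 microRNAs are known for repressing collagens and other matrix genes, the DNA methyltransferases of the Dnmt3 group and, in neurons, apoptosis genes of the BH3-only class. They accumulate as brain tissue matures and are abundant in postnatal neurons and astrocytes, while the transcription factor Myc represses them in dividing cells. The rise with age could not be examined here, because only 1 age was sampled.

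The 3 mature sequences that the family makes from its 3′ arms are shown because they decide which gene a read can be assigned to. All 4 genes have both arms in the RefSeq table (GRCm38.p6), and the seed, bases 2 to 8 from the 5′ end, is in capitals.
miR-29a-3p: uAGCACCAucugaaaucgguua
miR-29b-3p: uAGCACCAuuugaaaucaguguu
miR-29c-3p: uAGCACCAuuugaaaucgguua
The seed AGCACCA was the same in all of them, and no gene outside the family had a mature sequence with these letters at bases 2 to 8 in that table. With positions counted from 1 at the 5′ end and the miR-29a base given first, miR-29c differed from miR-29a by the single substitution C10U. The substitutions from miR-29a to miR-29b were C10U, G18A, U21G and A22U, and miR-29b is 1 base longer (23 against 22). miR-29b ends in AGUGUU at bases 18 to 23, a hexamer known to direct human miR-29b to the nucleus. On the sense strand, this hexamer was present in 12 of 1679 mature names of the table (0.715%) and was the last 6 bases of 2.

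The family lies in 2 pairs of neighbours. Mir29a (ENSMUSG00000065610.1, chr6:31062660-31062747, mm10, minus strand) and Mir29b-1 (ENSMUSG00000065604.1, chr6:31063023-31063093, minus strand) are 275 bp apart. In GENCODE M21 no other gene overlaps Mir29a, and Mir29b-1 shares 2 bp with an exon of the long noncoding RNA gene Gm27019 on the same strand. Mir29b-2 (ENSMUSG00000065412.2, chr1:195037040-195037120, plus strand) and Mir29c (ENSMUSG00000065548.1, chr1:195037547-195037634, plus strand) are 426 bp apart. Both lie whole in 1 exon of the noncoding transcript A330023F24Rik (chr1:195033823-195037904) on their own strand. On the other strand both lie in an exon of Cd46 (chr1:195036826-195042013), which codes for a complement regulatory membrane protein. The places are those of M21, and the files give an earlier identifier version for Mir29b-1 and Mir29b-2 than M21 does.

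The hairpins are shown because the 2 mir-29b genes carry the same mature 3′ arm, and the reads listed as multiply mapped stand outside the gene counts. In the hairpins of Mir29a and Mir29c the capitals mark the mature 3′ arm, and in those of Mir29b-1 and Mir29b-2 they mark the longest stretch that both have in common.
Mir29a hairpin: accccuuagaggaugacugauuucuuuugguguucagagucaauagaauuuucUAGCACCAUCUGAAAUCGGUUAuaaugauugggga
Mir29c hairpin: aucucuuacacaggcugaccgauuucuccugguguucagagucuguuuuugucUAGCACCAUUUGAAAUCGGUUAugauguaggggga
Mir29b-1 hairpin: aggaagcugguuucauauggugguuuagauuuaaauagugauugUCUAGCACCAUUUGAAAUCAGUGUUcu
Mir29b-2 hairpin: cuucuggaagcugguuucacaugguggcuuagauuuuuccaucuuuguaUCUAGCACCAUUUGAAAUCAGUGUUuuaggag
The stretch common to the mir-29b hairpins is 25 bases long and holds the whole of miR-29b-3p, which is 23 bases. A read of the full miR-29b-3p therefore has the same letters at both loci. The 5′ arms of the pair are not identical, and their longest common stretch is 9 bases. For Mir29a and Mir29c the longest stretch common to the hairpins is 14 bases. Mir29c has longer ones in common with Mir29b-1 (22 bases) and Mir29b-2 (19 bases). miR-29b-3p and miR-29c-3p are the same over their first 17 bases, so a read of these bases alone fits Mir29c and both mir-29b genes.

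The replicate 1 library held 3297835 reads assigned to microRNA genes and the replicate 2 library 3682410. Reads that mapped to several places stand in a row of their own, which held 30.9% and 29.5% of all reads, and they are in no gene count. How many mismatches the alignment allowed, and how it treated reads with several places, is not given in the sources used here. This bears on the separation of Mir29a from Mir29c and on the counts of the mir-29b genes. The counts are per gene and do not separate the arms.

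Mir29c and Mir29a were detected in both pools, near the middle of the genes with at least 10 reads in sum, and both mir-29b genes were at or near 0 in the gene counts. Mir29c had 452 reads in replicate 1 and 358 in replicate 2, which is 137 and 97.2 CPM, counted per 1000000 reads assigned to genes (mean 117 ± 28.2, SD, n = 2). Mir29a had 171 and 186 reads, or 51.9 and 50.5 CPM (51.2 ± 0.949). Both genes were hence present in each pool, and the levels of Mir29a were closer to each other than those of Mir29c. Exact 95% Poisson intervals were 125 to 150 CPM and 87.4 to 108 CPM for Mir29c, and 44.4 to 60.2 CPM and 43.5 to 58.3 CPM for Mir29a. Such intervals, here and below, cover counting error only, as the reads carry no molecular identifiers that would tell copies of a molecule apart.

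Mir29b-1 had 1 read in replicate 1 and 1 in replicate 2 (0.303 and 0.272 CPM). Mir29b-2 had 9 reads in replicate 1 (2.73 CPM, interval 1.25 to 5.18) and 0 in replicate 2, where a count of 0 allows up to about 3 reads, or 0.815 CPM. The exact 95% interval of this count reaches 1.00 CPM. Together the mir-29b genes held 11 of the 1178 reads of the family (0.934%). These counts do not hold the reads listed as multiply mapped, so they do not measure mature miR-29b-3p, and the number of its reads among the multiply mapped ones was not analysed here. No read of any of the 4 genes lay in the third count column, which was read as the opposite strand. For Mir29b-2 and Mir29c this is the strand that holds the Cd46 exon.

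**Figure D1:**
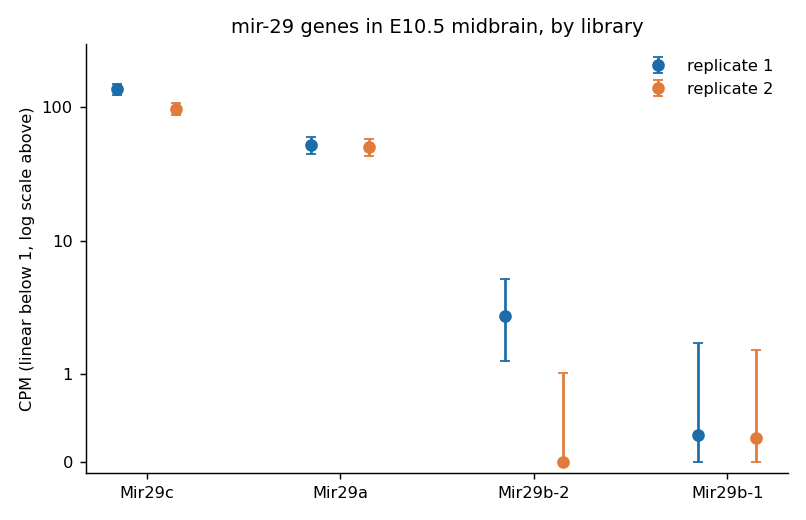
CPM of the 4 mir-29 genes (horizontal axis) in each of the 2 libraries, on an axis that is linear below 1 and logarithmic above. Points are single libraries and bars exact 95% Poisson intervals of the count. Mir29c lies at 137 and 97.2 CPM and Mir29a at 51.9 and 50.5 CPM, while Mir29b-2 reaches 2.73 CPM in replicate 1 and 0 in replicate 2.

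The order of the levels was Mir29c, Mir29a, then the mir-29b genes. The mature 3′ arms of Mir29c and Mir29a have 22 bases each, so their counts were compared without a correction for length. Mir29c had 2.64 times the reads of Mir29a in replicate 1 (exact 95% counting interval 2.21 to 3.17) and 1.92 times in replicate 2 (1.61 to 2.31). The lowest Mir29c level lay above the highest Mir29a level. The log2 ratio of Mir29c over Mir29a was 1.40 and 0.94 (1.17 ± 0.32, SD, n = 2), and its difference between the libraries was −0.46 with a counting interval of −0.82 to −0.10 (normal approximation on the log scale). Mir29b-2 and Mir29b-1 cannot be ordered over both libraries. Mir29b-2 had more reads in replicate 1 (9 against 1) and Mir29b-1 in replicate 2 (1 against 0). Mir29c made up 71.4% (95% Wilson interval 67.8 to 74.8%) and 65.7% (61.6 to 69.6%) of the family's reads, and Mir29a 27.0% (23.7 to 30.6%) and 34.1% (30.3 to 38.2%).

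The whole family had 633 reads in replicate 1 and 545 in replicate 2. This was 0.0192% (95% Wilson interval 0.0178 to 0.0207%) and 0.0148% (0.0136 to 0.0161%) of the gene-assigned reads, or 170 ± 31.1 CPM (SD, n = 2). By mean CPM, Mir29c ranked at 210 and Mir29a at 259 of the 1973 genes. Of the 485 genes with at least 10 reads in sum over both libraries, 56.7% had a lower mean than Mir29c and 46.6% a lower mean than Mir29a. The median of these genes was 68.8 CPM, between the levels of Mir29a and Mir29c. When genes were grouped by the number in their name, 14 such groups had 4 or more counted genes, and the mir-29 group was the 8th of them by summed CPM.

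Within each genomic pair the 2 genes differed widely in counts. Mir29a had 171 reads for the 1 read of Mir29b-1 in replicate 1, a ratio with a counting interval of 30.3 to 6793. In replicate 2 the ratio was 186 (33.0 to 7386). Mir29c had 50.2 times the reads of Mir29b-2 in replicate 1 (26.2 to 111). In replicate 2 the 358 reads of Mir29c were 119 times the limit of 3 reads for Mir29b-2, a value that leaves out the counting error of the 358 reads. In both pairs the gene with few reads is the one whose 3′ arm occurs at 2 loci, and the part of lost multiply mapped reads in these ratios was not tested.

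Differences of this size were also found among other neighbours. The series has 166 pairs of adjacent microRNA genes on 1 strand within 10 kb in which a gene had at least 10 reads in sum. With 0.5 reads added, the size of the log2 ratio, as the mean of the libraries, was 6.90 for Mir29a with Mir29b-1 and 7.53 for Mir29c with Mir29b-2. The median of the 164 other pairs was 3.63, and 38 and 33 of them differed by more than these values. With reads under 3 set to 3, the mir-29 pairs had 5.89 and 6.27 and the other pairs a median of 3.02. Some of the pairs with larger values hold a gene with a mature arm that occurs at another locus, and others do not. The pairs were not separated by this, and the part of lost multiply mapped reads in their ratios was not tested.

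**Figure D2:**
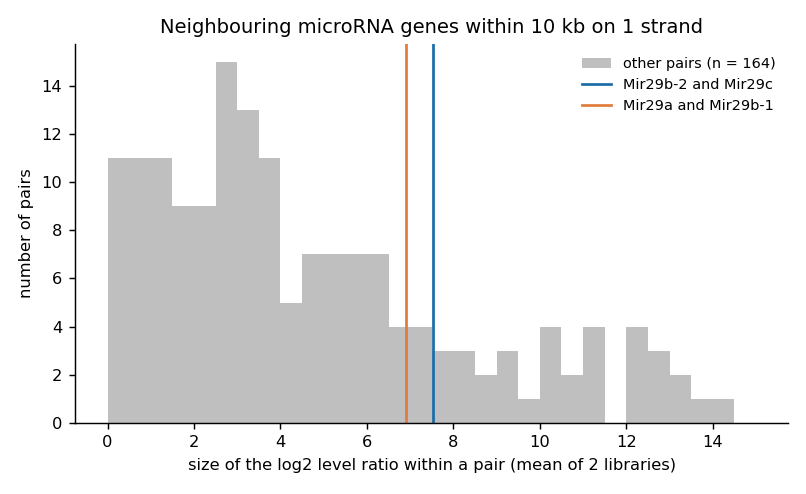
Number of pairs of neighbouring microRNA genes (within 10 kb on 1 strand) by the size of the log2 ratio of their reads, with 0.5 reads added, as the mean of 2 libraries. Grey bars are 164 other pairs, and lines mark the mir-29 pairs at 6.90 and 7.53, both above the median of 3.63.

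Low counts were also found, though not in general, among other microRNAs with identical copies. In the RefSeq table, 44 mature sequences were carried by 2 or more of the counted genes. By the reads summed over its genes, miR-29b-3p ranked at 28 of these 44, and their median was 185 reads. Of the 44, 17 (38.6%) had under 10 reads in each of their genes, with miR-29b-3p among them, and 15 had no reads. Over all 1973 counted genes, which include genes of any level, 485 had at least 10 reads in sum. The part of lost multiply mapped reads in the low counts of copies was not tested. By symbol, 582 counted genes had both arms in the table. Of these, 53 had an arm found at another locus beside an arm of their own, as both mir-29b genes do, and 40 of them (75.5%) had at least 10 reads in sum. This share was 57.7% among 513 genes with no such arm and 31.2% among 16 with no arm of their own. Because the counts do not separate the arms, these shares do not tell which arm the reads came from.

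Between the pools, Mir29c was lower in replicate 2 and Mir29a was close to equal. The fold of replicate 2 over replicate 1, with library sizes scaled by TMM, was 0.712 for Mir29c (exact 95% counting interval 0.618 to 0.819; log2 ratio −0.49) and 0.977 for Mir29a (0.790 to 1.21; log2 ratio −0.03). The interval of Mir29c lay below 1 and that of Mir29a included 1. Mir29b-2 was at least 3.34-fold lower in replicate 2 when its 9 reads in replicate 1 are set against 3 reads. Counting error of the 9 reads lowers this limit, and the exact 95% counting interval starts at 2.20-fold. For Mir29b-1, at 1 read in each library, no fold is given. The family's reads as a whole had a fold of 0.774 (0.689 to 0.869).

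Neither of the 2 members with at least 10 reads in sum was past 1.5-fold, the size used as a call between single libraries. Of all 485 genes with that many reads, 130 were past 1.5-fold (26.8%), 65 higher (13.4%) and 65 lower (13.4%) in replicate 2. The SD of the log2 ratio over these genes was 0.70 and the median −0.02. A larger difference in either direction was found for 33.4% of the genes when set against Mir29c and for 93.8% when set against Mir29a. When a mean of at least 10 CPM was asked for, 338 genes were left, of which 17.2% were past 1.5-fold and 22.2% had a larger difference than Mir29c, with an SD of 0.57. With no filter, 45.0% of 769 genes were past 1.5-fold, with an SD of 1.15. The log2 ratio of Mir29c was beyond its counting error and smaller than the SD over genes under each of these filters. Each pool has 1 library, so pools and library preparations cannot be told apart.

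**Figure D3:**
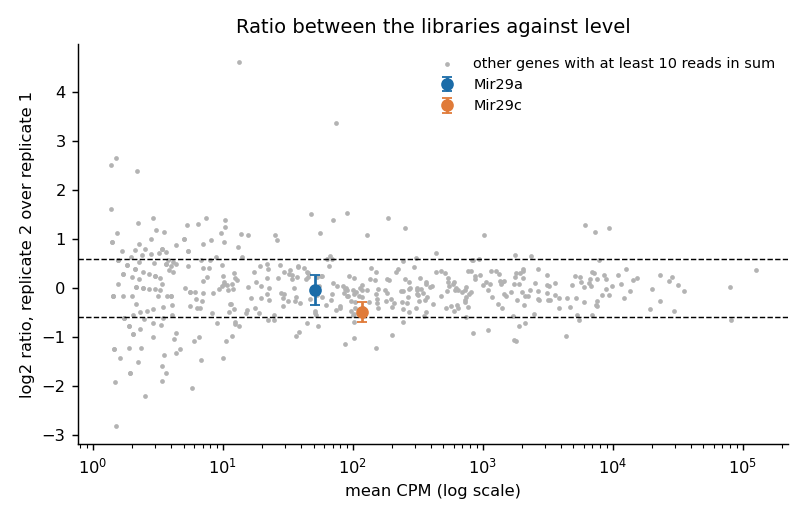
Log2 ratio of replicate 2 over replicate 1 (TMM-scaled, 0.5 reads added) against mean CPM on a log axis for genes with at least 10 reads in sum. Mir29a and Mir29c carry 95% counting intervals, dashed lines mark 1.5-fold, and both members lie between the lines at −0.03 and −0.49.

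Other microRNAs that Myc is known to repress spanned a wide range of levels around the mir-29 genes. Of 16 on the list, 14 were counted by symbol, all with at least 10 reads in sum. Of these, 8 had a higher mean CPM than Mir29c and 10 a higher one than Mir29a. The symbol Mir497 was not counted, while a gene named Mir497b, outside the list, had 1659 and 1641 reads. The highest were Mir30e (19272 ± 4106 CPM, SD, n = 2), Mir30d (5978 ± 839 CPM) and Mir15a (4485 ± 451 CPM), of which Mir15a is known for restraining the cell cycle. Of the 14, 0 were more than 1.5-fold higher in replicate 2 and 1 was lower, Mirlet7a-1, named after its value was seen. Over all 485 genes with at least 10 reads in sum, 13.4% were higher and 13.4% lower. The median log2 ratio of the 14 was −0.22, against −0.02 over all 485 genes. Some genes of the list, Mirlet7a-1 among them, have an arm found at another locus, and multiply mapped reads are not in their counts.

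MicroRNAs known to rise as neurons and brain mature lay on both sides of the Mir29a level. All 20 on the list were counted, and 5 had a higher mean CPM than Mir29c and 10 a higher one than Mir29a. The highest were Mir125a (2485 ± 648 CPM), Mir153 (1905 ± 704 CPM) and Mir125b-1 (1400 ± 285 CPM). Of 19 with at least 10 reads in sum, 8 were more than 1.5-fold lower in replicate 2 and 1 was higher, with a median log2 ratio of −0.51. Over all 485 genes the shares were 13.4% lower and 13.4% higher, with a median of −0.02. The log2 ratio of Mir29c, −0.49, was close to this median and that of Mir29a, −0.03, to the median of all genes. Mir124a, Mir125b, Mir128, Mir129, Mir138 and Mir218 each stand in the list with several genes, and reads listed as multiply mapped are not in their counts either.

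The mir-17-92 cluster and its paralogs, which Myc is known to activate and which promote the growth of dividing cells, mostly stood far above the mir-29 genes. Of 15 genes, 13 had a higher mean CPM than Mir29c and 14 a higher one than Mir29a. Mir19b-1 (57.5 CPM) lay below Mir29c, and Mir19b-2 (35.5 CPM) below both. The Mir19b and Mir92 genes of the list have an arm found at another locus, and multiply mapped reads are not in their counts. The 15 genes were led by Mir17, Mir20a (31949 ± 799 CPM) and Mir93 (20207 ± 294 CPM). Mir17 alone had 80045 ± 994 CPM, whereas the 4 mir-29 genes together had 170. Of the 15, 1 was more than 1.5-fold higher in replicate 2 and 0 lower, with a median log2 ratio of 0.12. The shares over all 485 genes with at least 10 reads in sum were 13.4% higher and 13.4% lower, with a median of −0.02.

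**Figure D4:**
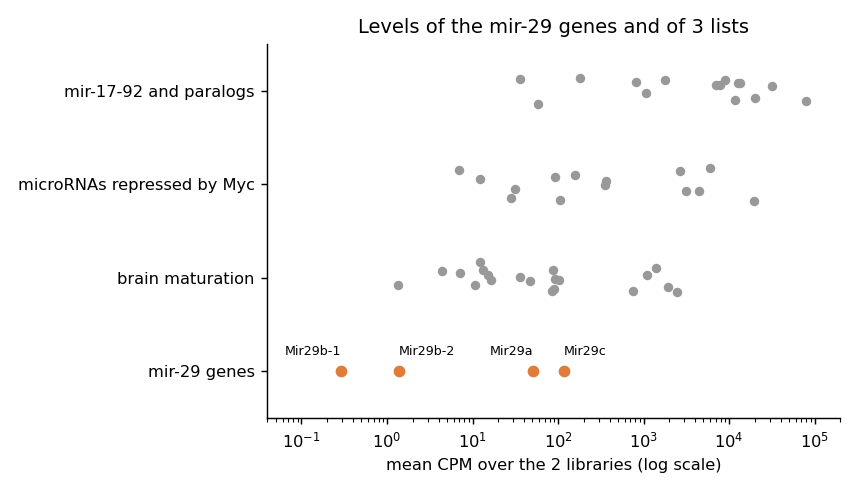
Mean CPM over 2 libraries (log axis) of the 4 mir-29 genes and of the counted genes of 3 lists, 1 point a gene (vertical scatter has no meaning). Mir29c at 117 CPM and Mir29a at 51.2 CPM lie within the range of the Myc-repressed and brain maturation lists and below 13 and 14 of the 15 genes of mir-17-92 and paralogs.

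Markers of other cells were present in both libraries, and those of mesenchyme were, like Mir29c, lower in replicate 2 by their median. The mesenchyme list (7 genes, all counted) held 1.67% of gene-assigned reads in replicate 1 and 1.36% in replicate 2, none at 0. Its median log2 ratio was −0.32, against −0.02 over all 485 genes with at least 10 reads in sum. Of its genes, 2 were past 1.5-fold lower, against 13.4% of all. These were Mir199a-2 (226 and 147 reads) and Mir199a-1 (17 and 7 reads). They have no arm of their own, and multiply mapped reads are not in their counts. Its highest gene was Mir143 at 7426 ± 1296 CPM. Mir214 followed with 3871 ± 375 CPM, ahead of Mir140 with 3279 ± 401 CPM. Endothelial Mir126a held 2.64% and 3.08%. The blood list, with 3 of 4 genes counted by symbol, held 0.0700% and 0.0650%. These were Mir451a (325 ± 41.5 CPM), Mir223 (312 ± 2.05 CPM) and Mir144 (37.9 ± 8.19 CPM). The symbol Mir142 was not counted. A gene named Mir142b, outside the list and not in this share, had 2250 and 3184 reads (773 CPM, log2 ratio 0.35), more than any of the 3. The part of these cells in the lower Mir29c of replicate 2 was not tested.

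For the labelled tissue, 3 of 4 neural progenitor genes were counted and held 2.14% and 2.54% of gene-assigned reads, nearly all from Mir92b (23299 ± 2904 CPM), with Mir9-3 at 102 ± 49.7 CPM and Mir9-2 at 0.998 ± 0.125 CPM. The log2 ratio of Mir92b was 0.26 and that of Mir9-3 −1.03, so the 2 members with at least 10 reads in sum differed in direction, with 1 of them past 1.5-fold lower. The 3 Mir124a genes, known from neurons, held 0.00240% and 0.00196%, at 13.4 ± 5.09 CPM for Mir124a-2, 7.04 ± 3.10 CPM for Mir124a-3 and 1.33 ± 1.12 CPM for Mir124a-1. Mir124a-2 was past 1.5-fold lower in replicate 2 (log2 ratio −0.78) and Mir124a-3 past 1.5-fold higher (0.91). The mir-9 genes, and likewise the Mir124a genes, are known as copies that make the same mature microRNA, and the gene counts do not hold reads listed as multiply mapped. Low counts of these genes are hence no measure of the mature microRNA.

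The genes most like the detected members in their 2 library values were sought by the distance of log2 CPM. For Mir29c they were Mir670 (451 and 378 reads, distance 0.08) and Mir7-2 (479 and 380 reads, distance 0.12). For Mir29a they were Mir6540 (184 and 185 reads, distance 0.11) and Mir574 (179 and 204 reads, distance 0.15). With only 2 libraries, this likeness is one of level and of a single ratio. For the mir-29b genes no like gene is named, as both had fewer than 10 reads in sum and the nearest gene above that limit lay at distances of 2.61 (Mir29b-1) and 1.58 (Mir29b-2).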

How the data were processed

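The deposited files hold raw read counts for each microRNA gene, 1 file per library, on assembly mm10 and annotation M4, per the descriptions deposited with them. The aligner was not given in the sources used here, nor were trimming and mismatch settings. Rows that name no gene (unmapped, multiply mapped, outside genes, ambiguous) held 57.8% and 60.9% of the reads and were left out of library sizes. Of 3 unnamed count columns, the first is the sum of the others and was used. The second held 97.4% and 97.3% of the gene reads and was read as the gene's strand. Identifiers were matched without version to GENCODE M21 (GRCm38, the build of mm10), 1894 of 1973, for names and places, and sequences came from RefSeq.

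CPM used gene-assigned reads. Log2 ratios used 0.5 added reads and TMM sizes (edgeR 4.0.16), and a gene entered with 10 reads in sum. With 1 group of 2 libraries, no test was made, and spread between libraries may be technical. The ratio and interval code was tested on simulated data. Alternatives were DESeq2 1.42.0 size factors, total counts, other filters, added reads, count columns and denominators, and each replicate left out. Named genes were the members, the 2 nearest to each and the 3 highest of each list. Neighbours on the same strand were also named. Members and lists were chosen with earlier results of these data known. Python 3.11.15, scipy 1.17.1 and R 4.3.3 were used.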

Additional observations from a re-analysis of the deposited data

How the results depend on the processing

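Of 57 alternative values for 16 results, 47 stayed within the replicate spread, the counting interval or, for counts, 1.5 times. Part of these 47 could not have moved, so their number is no measure of robustness. With n = 2, leaving out a replicate shifts a mean by less than the SD. The second count column cannot change the ratio of 2 members within a library, as no member had reads in the third column. Only 1 log2 ratio turned sign, that of Mir29a between the libraries. It was −0.03 with TMM and 0.0012 with DESeq2 size factors, both within counting error of 0. With all reads of the library as denominator the family's share was 0.00694%. Without the most abundant gene, Mir335, in the total, Mir29a had 58.7 CPM and Mir29b-1 0.329 CPM, and by the second count column Mir29a had 52.6 CPM. With reads under 3 set to 3, an alternative chosen after seeing the data, the log2 ratio of Mir29a over Mir29b-1 was 5.89. Genes past 1.5-fold numbered 30 higher and 28 lower among 338 genes of mean CPM 10 or more, and 171 higher and 175 lower among 769 with no filter on low counts. In the brain maturation list, 0 genes were higher at mean CPM 10 or more. Leaving out a replicate gave a family share of 0.0148 to 0.0192%, 50.5 to 51.9 CPM for Mir29a, 97.2 to 137 for Mir29c, 0.272 to 0.303 for Mir29b-1 and 0 to 2.73 for Mir29b-2. The level of Mir29b-2 rests on replicate 1 alone. No paired analysis was possible because the series has a single group. Depth limits the mir-29b genes, for which 1 read is the whole count of Mir29b-1 in each library.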
